A study of Mus musculus with 8 samples.

Results

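Immediate early and primary response genes were examined in mouse liver 1 h after activation of the farnesoid X receptor (FXR, encoded by Nr1h4), a bile acid-sensing nuclear receptor. The set was 34 genes chosen by gene symbol from the 25124 rows of the expression table, and each gene had 1 row. No threshold on a measured value was applied, but earlier results of these data were known when the genes were chosen. The RNA-seq part holds 4 libraries of total liver RNA depleted of ribosomal RNA, from C57BL/6 mice given either vehicle or the synthetic FXR agonist GW4064 (30 mg/kg, 1 h) after an overnight fast. Each treatment has 2 libraries from 4 mice, since each library pooled the liver RNA of 2 mice. The global run-on sequencing (GRO-seq) part, which measures nascent RNA in isolated nuclei, has 1 library for each of 4 groups. These are vehicle and GW4064 in livers labelled WT and in livers labelled FXR KO, which the study's methods describe as Fxr-Flox and Fxr-LKO male mice, also fasted overnight and treated for 1 h. In Fxr-LKO mice the floxed gene is deleted by Cre under the Albumin promoter, so liver cells that do not express Albumin keep the gene. The labels give the vehicle as DMSO and the methods as corn oil.

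Immediate early genes are transcribed within minutes of a stimulus from factors that are already present in the cell, without new protein synthesis. Growth factors, cytokines and hormones reach them mainly through MAP kinases, serum response factor and cAMP response element-binding protein. Many encode transcription factors, and others encode proteins that end the response by removing phosphate from kinases or by degrading short-lived mRNAs. In liver they are known for their response to partial hepatectomy, stress and tissue handling.

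The genes fall into 9 roles. There are 8 AP-1 factors and relatives (Fos, Fosb, Fosl1, Fosl2, Jun, Junb, Jund, Atf3), 3 EGR zinc-finger factors (Egr1, Egr2, Egr3), 5 Krüppel-like factors (Klf2, Klf4, Klf6, Klf9, Klf10) and 3 NR4A orphan nuclear receptors (Nr4a1, Nr4a2, Nr4a3). Myc and Srf, which encode the growth regulator c-MYC and serum response factor, form a pair, and Ier2, Ier3 and Ier5 encode small immediate early response proteins. The 3 ZFP36 genes (Zfp36, Zfp36l1, Zfp36l2) encode proteins that bind AU-rich mRNAs and promote their decay, and Btg1 and Btg2 encode antiproliferative proteins. The last 5 genes are Dusp1 and Dusp6, phosphatases of MAP kinases, Sik1, a salt-inducible kinase, Rhob, a small GTPase, and Mcl1, an anti-apoptotic BCL2 family member. Their rows were short, with a median of 4637.5 bases and 82.4% under 10 kb, against a median of 18234 bases and 31.3% for protein-coding genes tested in RNA-seq. In the GENCODE annotation 6 of them (Jun, Junb, Jund, Ier2, Ier5, Rhob) have transcripts of 1 exon only, and exons covered from 13.5% of the row in Nr4a3 to 100% in Jun. Levels are given as RPKM, reads per kilobase of the whole gene, introns included, scaled to the number of mapped reads of the library.

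Promoter sequence was searched because so many of these genes share the same upstream signals. The RefSeq promoter table for GRCm38.p6, the assembly of mm10, held 26 of the 34 genes, as 250 bases before to 50 after the start of transcription. Egr1, Egr3, Fosl1, Ier2, Klf10, Myc, Sik1 and Zfp36l2 had no entry. Below are the 200 bases before the start for 6 genes that the values below turn on, and for Nr4a1, which had a different pattern, 5′ to 3′ on the gene's strand. Capitals mark matches to the motifs searched, and positions count the first transcribed base as 0.
Jun, chr4:95052223-95052422, minus strand: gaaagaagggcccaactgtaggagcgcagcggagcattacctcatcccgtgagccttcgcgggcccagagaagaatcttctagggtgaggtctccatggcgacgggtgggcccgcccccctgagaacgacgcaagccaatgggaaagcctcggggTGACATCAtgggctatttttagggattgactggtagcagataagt
Atf3, chr1:191183334-191183533, minus strand: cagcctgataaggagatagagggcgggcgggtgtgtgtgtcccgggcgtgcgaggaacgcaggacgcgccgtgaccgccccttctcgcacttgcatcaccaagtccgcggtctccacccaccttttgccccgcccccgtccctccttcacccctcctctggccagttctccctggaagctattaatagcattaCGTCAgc
Zfp36, chr7:28379229-28379428, minus strand: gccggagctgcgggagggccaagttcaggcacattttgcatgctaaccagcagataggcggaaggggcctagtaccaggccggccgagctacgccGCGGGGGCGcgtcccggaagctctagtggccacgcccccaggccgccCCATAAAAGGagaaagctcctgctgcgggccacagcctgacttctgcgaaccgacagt
Btg2, chr1:134079156-134079355, minus strand: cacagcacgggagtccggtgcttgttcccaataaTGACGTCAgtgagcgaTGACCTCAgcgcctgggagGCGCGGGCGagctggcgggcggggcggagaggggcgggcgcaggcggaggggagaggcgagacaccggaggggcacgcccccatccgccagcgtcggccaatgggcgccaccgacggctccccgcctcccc
Dusp1, chr17:26508473-26508672, minus strand: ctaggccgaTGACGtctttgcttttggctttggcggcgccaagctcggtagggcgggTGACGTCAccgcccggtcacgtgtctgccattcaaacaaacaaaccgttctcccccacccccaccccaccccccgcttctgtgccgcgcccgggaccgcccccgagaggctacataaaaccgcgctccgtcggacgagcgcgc
Fos, chr12:85473690-85473889, plus strand: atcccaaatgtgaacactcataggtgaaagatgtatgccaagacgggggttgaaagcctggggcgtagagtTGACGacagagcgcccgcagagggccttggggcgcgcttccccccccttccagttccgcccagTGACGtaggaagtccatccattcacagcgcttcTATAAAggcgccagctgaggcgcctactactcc
Nr4a1, chr15:101266646-101266845, plus strand: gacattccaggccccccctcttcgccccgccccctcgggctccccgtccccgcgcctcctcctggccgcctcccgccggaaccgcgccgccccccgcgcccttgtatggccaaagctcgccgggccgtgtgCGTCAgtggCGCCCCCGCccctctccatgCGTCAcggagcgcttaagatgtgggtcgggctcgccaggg
The core of the cAMP response element, TGACG on either strand, occurred in 15 of the 26 promoters (57.7%), against 21.0% of all 27025 promoters of the table and 33.0% of the 8592 whose genes were tested in RNA-seq. Fos had it at -129 and -66 from the start, Atf3 at -7 and Nr4a1 at -69 and -40 and, beyond the printed bases, at -233 and -213. The full palindrome TGACGTCA, which holds the core on both strands, was in Btg2 at -166 and Dusp1 at -143. That is 7.69%, against 1.88% of all promoters and 3.35% of those of tested genes. The 8-base relative TGANNTCA, which also matches that palindrome, was in 6 promoters (23.1% against 14.3%) and lay at -45 in Jun. The EGR site GCGNGGGCG was in 9 promoters, including those of Zfp36, Btg2 and Nr4a1 (34.6% against 5.55% of all and 10.4% of tested genes). The CArG box, the binding site of serum response factor, was in Srf and Zfp36 (7.69% against 1.57%), and TATAAA was in 6 promoters (23.1% against 14.2%). The 7-base AP-1 site TGANTCA was in Klf9 and Zfp36l1, at a share close to that of all promoters (7.69% against 7.93%). IR1, the inverted repeat with 1 base between its arms that FXR binds, in its consensus form matched none of the 26 and 0.0111% of all promoters. These are matches of letters within those bases, with no measurement of binding, and a site further from the start would be missed.

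The rebuilt depth was 13924464 to 14047221 reads per RNA-seq library. It was 14173716 reads (vehicle) and 10593323 reads (GW4064) for the WT GRO-seq libraries and 5141667 and 5069394 reads for the libraries labelled FXR KO. Nr1h4 itself does not check the genotype labels, since the row spans the whole gene. Its nascent level was 15.1 RPKM (vehicle) and 4.23 RPKM (GW4064) in WT and 16.7 and 20.6 RPKM in the KO libraries. Nr0b2, a classical FXR target, went from 3.65 to 36.6 RPKM in WT and from 0.118 to 1.19 RPKM in the KO libraries. Its level was thus much lower in the KO libraries. The KO vehicle value lay close to the 0.1 RPKM that was added before log2 ratios were taken. The size of the relative rise in KO is therefore poorly determined, and it was not compared between genotypes. Hepatocyte markers (5 of 5 tested, none called) summed to 285 to 324 RPKM in RNA-seq, to 478 and 482 RPKM in the WT GRO-seq libraries and to 787 and 782 RPKM in the KO libraries. Alb and Apoa1 carried that gap (with vehicle, 164 and 142 RPKM in WT against 271 and 345 RPKM in KO), while Ttr was at 63.1 against 64.8 RPKM, Fgb at 83.2 against 81.6 RPKM and Serpina1c at 26.3 against 24.0 RPKM. Markers of Kupffer cells summed to 15.1 to 16.2 RPKM in RNA-seq, those of sinusoidal endothelial cells to 18.2 to 19.3 RPKM and those of stellate cells to 12.8 to 15.5 RPKM, with no gene called in either direction. In GRO-seq the Kupffer cell sum was 5.71 (vehicle) and 6.82 RPKM (GW4064) in WT and 7.79 and 5.73 RPKM in KO, and the endothelial sum was 11.6 and 14.2 RPKM in WT and 12.7 and 10.3 RPKM in KO. Cholangiocyte markers summed to 3.79 and 4.84 RPKM with vehicle and 2.64 and 6.28 RPKM with GW4064, and no marker of any list was at 0. In GRO-seq the neutrophil marker S100a8 was at 5.495 (vehicle) and 4.02 RPKM (GW4064) in WT and at 1.41 and 1.84 RPKM in KO. S100a9 was at 2.28 and 1.77 RPKM in WT and at 0.566 and 0.893 RPKM in KO. The red cell marker Hbb-bs was at 4.42 and 6.79 RPKM in WT and at 4.57 and 7.02 RPKM in KO. Lymphocyte markers (Cd3e, Cd79a, Ms4a1) were at 0.018 to 0.268 RPKM. In whole liver, fewer cells of a type and less RNA per cell cannot be told apart.

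In total RNA, 1 of the immediate early genes rose after GW4064 and none fell, by limma with Benjamini-Hochberg adjustment over all genes tested. The filter of a mean of at least 0.5 RPKM left 28 of the 34 genes among 11408 genes tested. Fosb, Fosl1, Egr2, Egr3, Nr4a2 and Nr4a3 did not pass it, and their RNA-seq levels ranged from 0.015 to 0.409 RPKM. The background was 2.13% of all tested genes called higher and 1.15% called lower. At an unadjusted p under 0.05, 9 immediate early genes were higher and 1 lower, where 10.6% of all genes were higher and 10.6% lower. Both GW4064 values lay above both vehicle values in 14 of the 28 genes (background 26.0%) and below in 4 (background 28.1%). The median log2 change was 0.09 for the 28 genes and -0.003 for all genes tested, and 20 of the 28 (71.4%) had a change above 0, against 49.2% of all genes. That median shifted with single libraries but stayed above 0. It was 0.308 without vehicle replicate 1, 0.259 without GW4064 replicate 1, 0.056 without vehicle replicate 2 and 0.068 without GW4064 replicate 2. A model of the rebuilt reads (limma-voom) called 6 of the 28 higher (Jun, Atf3, Ier2, Zfp36, Zfp36l1, Sik1) and Dusp6 lower, with a background of 4.58% higher and 4.22% lower.

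**Figure D1:**
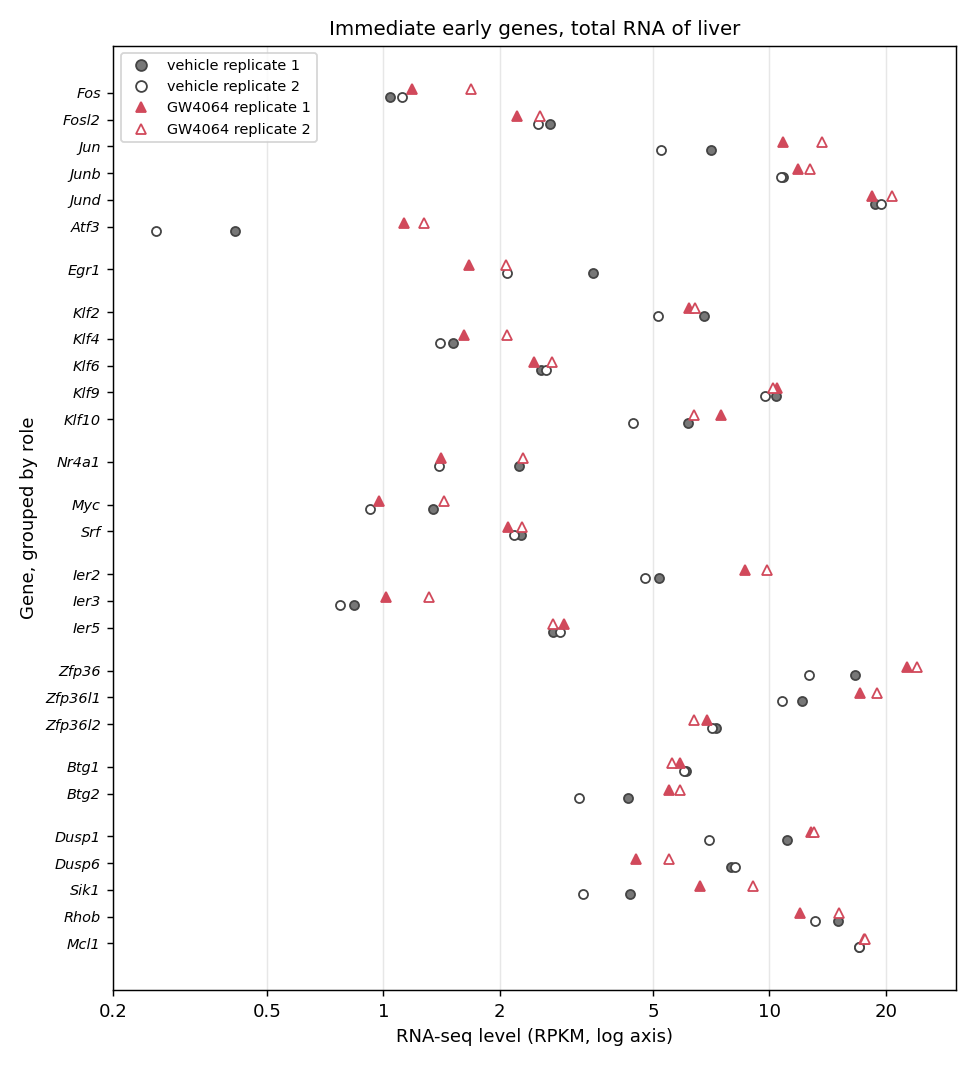
RNA-seq level in RPKM on a log axis for the 28 genes that passed the filter on low values, grouped by role from AP-1 factors at the top to signalling genes at the bottom. Each point is 1 library of pooled RNA from 2 mice. The GW4064 points of Atf3, Jun, Ier2, Zfp36, Zfp36l1 and Sik1 lie to the right of both vehicle points, those of Dusp6 lie to the left, and those of Nr4a1 and Myc span the same range as the vehicle points.

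Ier2, a small nuclear immediate early protein (chromosome 8, 84661331 to 84662852 of mm10, 1 exon), was the gene that rose. Its level was 5.19 and 4.77 RPKM in the vehicle libraries and 8.64 and 9.87 RPKM in the GW4064 libraries. The groups did not overlap. The fold change was 1.84 (95% interval 1.53 to 2.21, log2 0.88, standard error 0.095, adjusted p = 0.0373 by limma). The call was lost when any 1 of the 4 libraries was left out (adjusted p from 0.138 to 0.201 by limma, log2 change from 0.78 to 0.97). Ier3, which modulates survival signalling, was at 0.839 and 0.772 RPKM with vehicle and 1.02 and 1.31 RPKM with GW4064 (limma adjusted p = 0.186), and Ier5 stayed between 2.75 and 2.94 RPKM in all 4 libraries.

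The AP-1 genes spanned a wide range of changes. Atf3, a stress-induced partner of JUN (chromosome 1, 191170297 to 191183333), had 0.413 and 0.257 RPKM with vehicle and 1.13 and 1.28 RPKM with GW4064. Its groups were far apart relative to the gap within each, but its log2 change of 1.60 (95% interval 0.999 to 2.21) had an adjusted p of 0.0544 by limma. Jun, the core AP-1 subunit (chromosome 4, 95049036 to 95052222), had 7.07 and 5.23 RPKM with vehicle and 10.8 and 13.7 RPKM with GW4064, again without overlap (log2 change 0.99, 95% interval 0.42 to 1.56, limma adjusted p = 0.109). Fos, its best known partner, was low throughout, with 1.04 and 1.11 RPKM with vehicle and 1.19 and 1.69 RPKM with GW4064. Its lowest GW4064 value was close to the highest vehicle value (limma adjusted p = 0.349). Junb, which dampens JUN activity, was at 10.7 to 10.8 RPKM with vehicle and 11.8 to 12.7 RPKM with GW4064 (log2 change 0.18, limma adjusted p = 0.229). Jund, the AP-1 gene with the highest level, overlapped between groups at 18.7 and 19.5 against 18.4 and 20.7 RPKM, and Fosl2 overlapped as well. The log2 change of Jund, 0.03, became -0.102 under quantile normalization.

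The mRNA decay, antiproliferative and feedback genes gave a mixed picture. Zfp36, which encodes tristetraprolin, had 16.7 and 12.6 RPKM with vehicle and 22.7 and 24.2 RPKM with GW4064 (log2 change 0.69, limma adjusted p = 0.126). Zfp36l1 had 12.2 and 10.8 RPKM with vehicle and 17.2 and 19.0 RPKM with GW4064 (log2 change 0.65, limma adjusted p = 0.0624), while Zfp36l2 had 7.25 and 7.12 against 6.88 and 6.39 RPKM. So the first pair of these genes was higher in both GW4064 libraries and Zfp36l2 slightly lower. Btg2, a p53- and stress-responsive antiproliferative gene, had 4.30 and 3.22 RPKM with vehicle and 5.49 and 5.87 RPKM with GW4064 (limma adjusted p = 0.159), whereas Btg1 had 6.09 and 6.02 against 5.86 and 5.59 RPKM. Sik1, a kinase that restrains cAMP-driven gene expression (chromosome 17, 31844248 to 31855804), had 4.35 and 3.30 RPKM with vehicle and 6.60 and 9.05 RPKM with GW4064 (log2 change 1.01, 95% interval 0.39 to 1.63, limma adjusted p = 0.12).

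The MAP kinase phosphatases differed from each other. Dusp6, which is selective for ERK and is itself an ERK target (chromosome 10, 99263231 to 99267489), had 7.96 and 8.16 RPKM with vehicle and 4.52 and 5.49 RPKM with GW4064. Both GW4064 values were below both vehicle values (log2 change -0.68, 95% interval -0.996 to -0.369, limma adjusted p = 0.0744). Dusp1, which acts mainly on p38 and JNK, had 11.1 and 6.99 RPKM with vehicle and 12.8 and 13.1 RPKM with GW4064, and the gap between its vehicle replicates (1.58-fold) exceeded the fitted change (1.46-fold, limma adjusted p = 0.313). Mcl1 lay within 17.02 to 17.71 RPKM in all 4 libraries, and its log2 change of 0.05 turned to -0.085 under quantile normalization.

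The other transcription factors had no call. Egr1 was at 3.48 and 2.09 RPKM with vehicle and 1.67 and 2.08 RPKM with GW4064, so the groups met at their edge (log2 change -0.51, limma adjusted p = 0.385). Nr4a1, also known as NUR77, was at 2.24 and 1.40 RPKM with vehicle and 1.41 and 2.30 RPKM with GW4064, with the replicates of each treatment nearly as far apart as the whole range. Klf9, a glucocorticoid-responsive factor and the Krüppel-like gene with the highest level, was at 9.71 to 10.5 RPKM in all 4 libraries, and its log2 change of 0.04 was -0.039 under quantile normalization. Srf was at 2.10 to 2.29 RPKM and Klf6 at 2.45 to 2.74 RPKM, with overlapping groups. Klf10, a TGF-beta-induced factor, had 6.17 and 4.43 RPKM with vehicle and 7.48 and 6.38 RPKM with GW4064 (limma adjusted p = 0.346), and Klf4 had 1.52 and 1.40 against 1.61 and 2.09 RPKM (limma adjusted p = 0.315). Klf2, Myc and Rhob overlapped between groups.

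Agreement between replicates was checked gene by gene, because these genes are sensitive to handling. The GW4064 libraries differed by a median of 0.167 on the log2 scale over the 28 genes (1.12-fold), against 0.094 over all genes tested. The vehicle libraries differed by a median of 0.114 (1.08-fold), against 0.089. No gene of the 28 differed by 2-fold between replicates, and few did among the 10240 genes in the same range of reads. These were 14 with vehicle and 22 with GW4064. The gap was larger than counting error allows, at a 95% interval, for 11 of the 28 genes with GW4064 (39.3%, against 22.8% of genes in the same range of reads) and for 14 with vehicle, against 19.3% of such genes. The direction was largely shared, with 23 of 28 genes lower in replicate 1 than in replicate 2 with GW4064 and 22 of 28 higher in replicate 1 with vehicle. Of all genes tested, 55.4% were lower in replicate 1 with GW4064 and 54.7% were lower in replicate 1 with vehicle, the opposite lean to these 28 genes in the vehicle pair. Nr4a1 had the widest gap in the GW4064 pair (1.59-fold), followed by Myc (1.43-fold), Fos (1.39-fold) and Sik1 (1.37-fold). In the vehicle pair Egr1 (1.64-fold), Dusp1 (1.58-fold) and Nr4a1 (1.56-fold) were furthest apart. Ier2, at 1.09-fold with vehicle and 1.14-fold with GW4064, was close to the medians of the 28 genes and slightly above both.

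**Figure D2:**
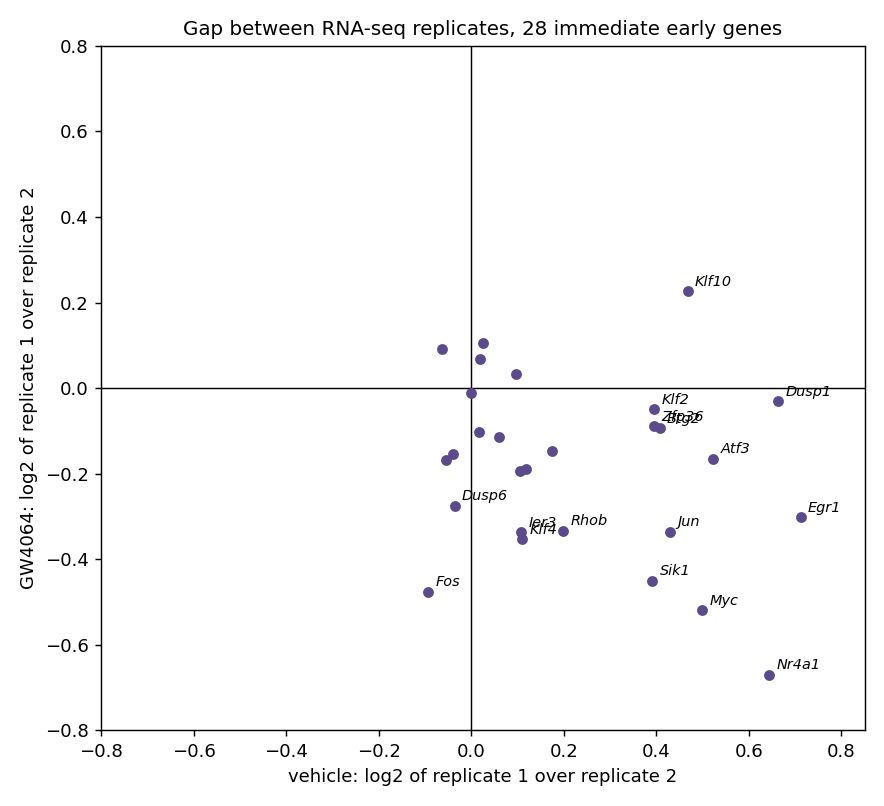
Log2 ratio of replicate 1 to replicate 2 in vehicle (horizontal) and GW4064 (vertical) RNA-seq libraries, after adding 0.1 RPKM. Each point is 1 of the 28 genes tested, and most lie at the lower right, where replicate 1 is the higher vehicle library and the lower GW4064 library.

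In nascent RNA of WT livers, Sik1 and Jun were the immediate early genes above a filter on low values that were past 2-fold after GW4064. With 1 library per group there is no test, and intervals cover counting error only. Of the 34 genes, 27 passed the filter of a mean of 0.5 RPKM over the 4 GRO-seq libraries, among 10169 rows. Atf3, Fosb, Fosl1, Egr2, Egr3, Nr4a2 and Nr4a3 did not. A 2-fold difference was counted after adding 0.1 RPKM and only where 1 of the 2 libraries held 20 reads or more. In WT livers the 2 genes were higher (background 2.56%) and no gene of the set was 2-fold lower (background 1.61%). Fos (log2 ratio 0.996), Btg2 (0.951), Dusp1 (0.927), Zfp36 (0.909) and Myc (-0.998) lay just inside the line. The median log2 ratio of all rows was -0.094, and after centring on it Fos, Zfp36, Btg2 and Dusp1 joined Jun and Sik1, which makes 6. The share of all rows past 2-fold after centring was not counted. The median of the 27 genes was 0.203, with 19 above 0 (38.0% of all rows were above 0) and 8 below.

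In the libraries labelled FXR KO, Fos and Nr4a1 were 2-fold higher after GW4064 (background 0.688%) and Ier5 was 2-fold lower (background 0.482%). The median of the 27 genes was 0.05 and that of all rows -0.024. These calls rested on few reads, 7 and 21 for Fos and 15 and 48 for Nr4a1, and with 1 RPKM added none of the 3 was past the line.

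**Figure D3:**
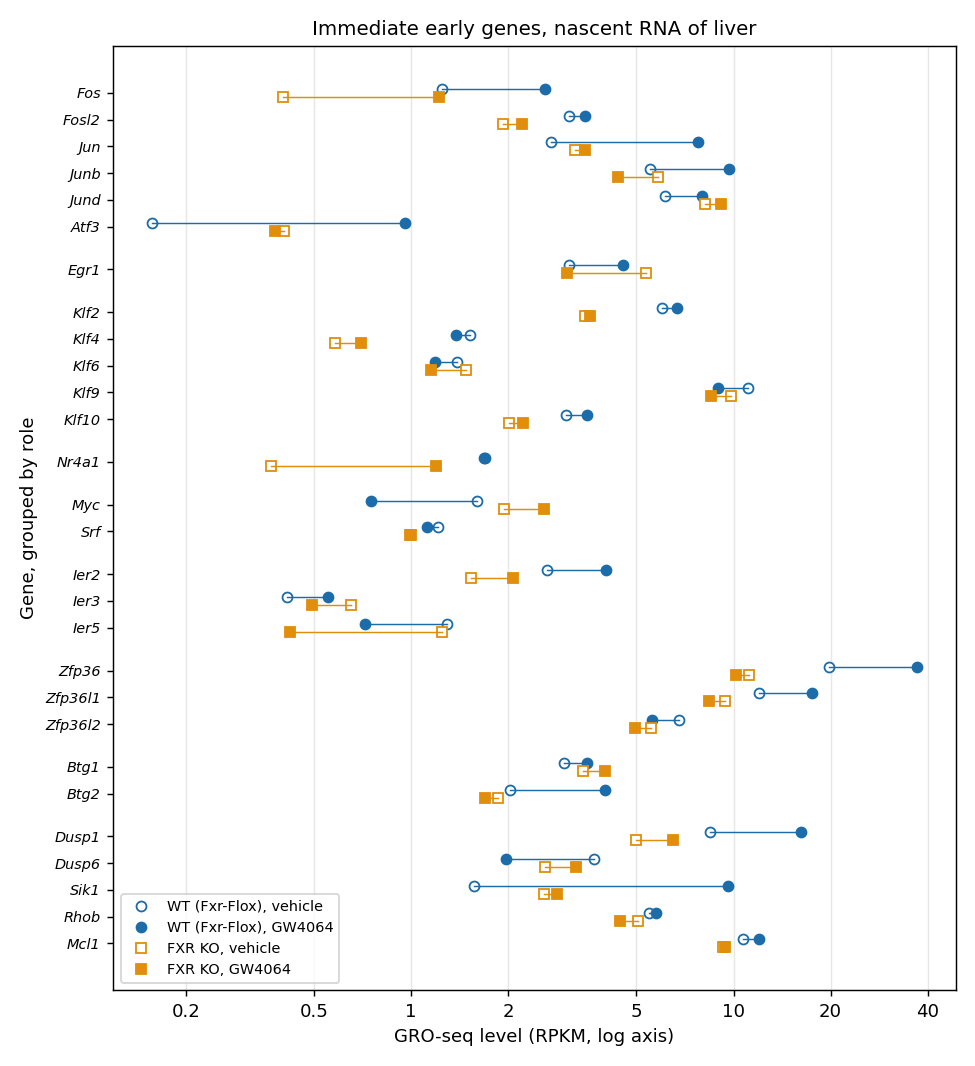
GRO-seq level in RPKM on a log axis for the 27 genes that passed the filter and for Atf3. Each point is 1 library, open for vehicle and filled for GW4064, with circles for WT (Fxr-Flox) and squares for FXR KO, and lines join the 2 treatments of a genotype. The WT lines of Sik1, Atf3 and Jun are long and their KO lines short, while Nr4a1 has a long KO line only.

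Sik1 had the largest WT ratio of the 27 genes. It went from 1.56 RPKM (256 reads) to 9.58 RPKM (1173 reads) in WT livers and from 2.59 to 2.83 RPKM in the KO libraries. The log2 ratio of read densities was 2.62 in WT (95% counting interval 2.42 to 2.82) and 0.13 in KO (-0.20 to 0.46). Jun went from 2.72 RPKM (123 reads) to 7.73 RPKM (261 reads) in WT, a log2 ratio of 1.51 (1.19 to 1.83), and from 3.23 to 3.47 RPKM in the KO libraries. Atf3, below the filter, went from 0.157 RPKM (29 reads) to 0.956 RPKM (132 reads) in WT, or 6.09-fold (4.05 to 9.45), and from 0.403 to 0.378 RPKM in the KO libraries. For these 3 genes WT with GW4064 was the highest of the 4 libraries and WT with vehicle the lowest.

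Several decay and feedback genes were also higher with GW4064 in WT livers, by a smaller step, but Zfp36l2 (6.76 to 5.59 RPKM) and Dusp6 were lower. Zfp36 went from 19.7 to 37.1 RPKM in WT and from 11.1 to 10.2 RPKM in KO. Zfp36l1 went from 12.0 to 17.4 RPKM in WT and from 9.40 to 8.37 RPKM in KO, and Btg2 from 2.02 to 4.005 RPKM in WT and from 1.86 to 1.70 RPKM in KO. Each of these 3 genes was higher with GW4064 in WT livers and slightly lower with it in the KO libraries. Dusp1 went from 8.45 to 16.2 RPKM in WT and from 4.996 to 6.51 RPKM in KO, Junb from 5.53 to 9.70 and from 5.82 to 4.40 RPKM, and Ier2 from 2.64 to 4.03 and from 1.53 to 2.08 RPKM.

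Some genes went the other way or moved in the KO libraries. Dusp6 went from 3.69 to 1.97 RPKM in WT and from 2.60 to 3.24 RPKM in KO, and Myc from 1.60 to 0.752 RPKM in WT and from 1.94 to 2.59 RPKM in KO. Egr1 went from 3.09 to 4.56 RPKM in WT and from 5.34 to 3.05 RPKM in KO, so that its nascent and total RNA differed in sign in WT livers. Fos went from 1.25 to 2.59 RPKM in WT and from 0.402 to 1.22 RPKM in KO, and was thus higher with GW4064 in both genotypes. Nr4a1 was level in WT at 1.68 and 1.70 RPKM and went from 0.367 to 1.19 RPKM in KO. Ier5 was lower with GW4064 in both, from 1.29 to 0.722 RPKM in WT and from 1.25 to 0.422 RPKM in KO. Jund went from 6.13 to 8.01 RPKM in WT and from 8.18 to 9.12 RPKM in KO, Klf9 from 11.1 to 8.95 and from 9.84 to 8.51 RPKM, Btg1 from 2.98 to 3.51 and from 3.41 to 4.01 RPKM, Srf from 1.21 to 1.12 and from 1.00 to 0.994 RPKM, and Mcl1 from 10.7 to 12.0 and from 9.29 to 9.43 RPKM. The other genes that passed the filter (Fosl2, Klf2, Klf4, Klf6, Klf10, Ier3, Zfp36l2, Rhob) had log2 ratios, after adding 0.1 RPKM, from -0.27 to 0.35 in WT and from -0.34 to 0.23 in KO. Below the filter, Nr4a2, a neuronal and inflammatory orphan receptor, was at 0.303 (72 reads) and 0.608 RPKM (108 reads) in WT and at 0.058 (5 reads) and 0.071 RPKM (6 reads) in KO, and Fosb, Fosl1, Egr2, Egr3 and Nr4a3 were between 0 and 0.671 RPKM.

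The WT and KO log2 ratios were set side by side for the 27 genes. The WT ratio was above the KO ratio in 18 (66.7%), against 44.4% of all rows, and the median difference was 0.149 against -0.054. The 95% counting interval of WT minus KO lay above 0 for 8 genes (Jun, Junb, Egr1, Zfp36, Zfp36l1, Btg2, Dusp1, Sik1, background 15.2%) and below 0 for 3 (Nr4a1, Myc, Dusp6, background 19.9%). For Sik1 the difference from the reads was 2.49 (2.10 to 2.87), for Jun 1.40 (0.75 to 2.06), for Zfp36 1.04 (0.66 to 1.43) and for Nr4a1 -1.68 (-2.68 to -0.75). For Atf3 it was 2.68 (1.64 to 3.75). These intervals hold no spread between animals, so a difference between genotypes was not tested.

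**Figure D4:**
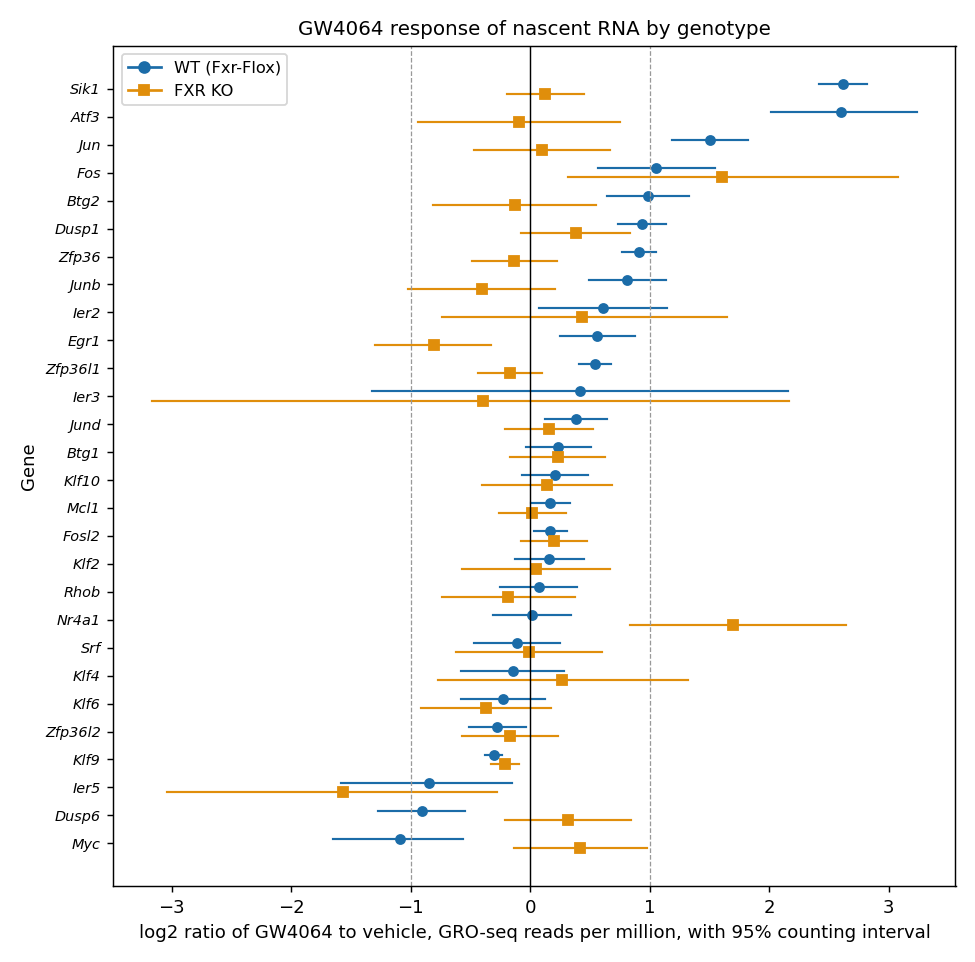
Log2 ratio of GW4064 to vehicle in GRO-seq, from read densities with no value added, for WT (Fxr-Flox, circles) and FXR KO (squares) livers. Genes are sorted by their WT ratio, bars are 95% counting intervals from 1 library per group, and dashed lines mark 2-fold. The WT and KO bars do not meet for Sik1, Atf3, Jun, Btg2, Zfp36, Junb, Egr1, Zfp36l1, Nr4a1, Myc and Dusp6.

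Levels were also compared between genotypes at the same treatment. With vehicle, Fos, Klf4 and Nr4a1 were 2-fold lower in the KO library than in WT (background 1.29%) and no gene of the set was 2-fold higher (background 1.59%). Klf4, a factor of epithelial and endothelial cells, was at 0.583 RPKM in KO and 1.52 RPKM in WT. With GW4064, 8 genes (Fos, Jun, Junb, Zfp36, Zfp36l1, Btg2, Dusp1, Sik1) were 2-fold lower in the KO library (background 3.43%) and Myc was 2-fold higher (background 2.0%). The median log2 ratio of KO to WT over the 27 genes was -0.197 with vehicle and -0.623 with GW4064, where all rows had -0.068 and 0.003. These ratios share their libraries with those above. The KO libraries had higher Alb and Apoa1, lower S100a8 and S100a9 and fewer reads than the WT libraries, as given above. The sums of Kupffer cell and endothelial markers were higher with GW4064 in WT and lower with it in KO. The part of these in the differences was not tested.

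**Figure D5:**
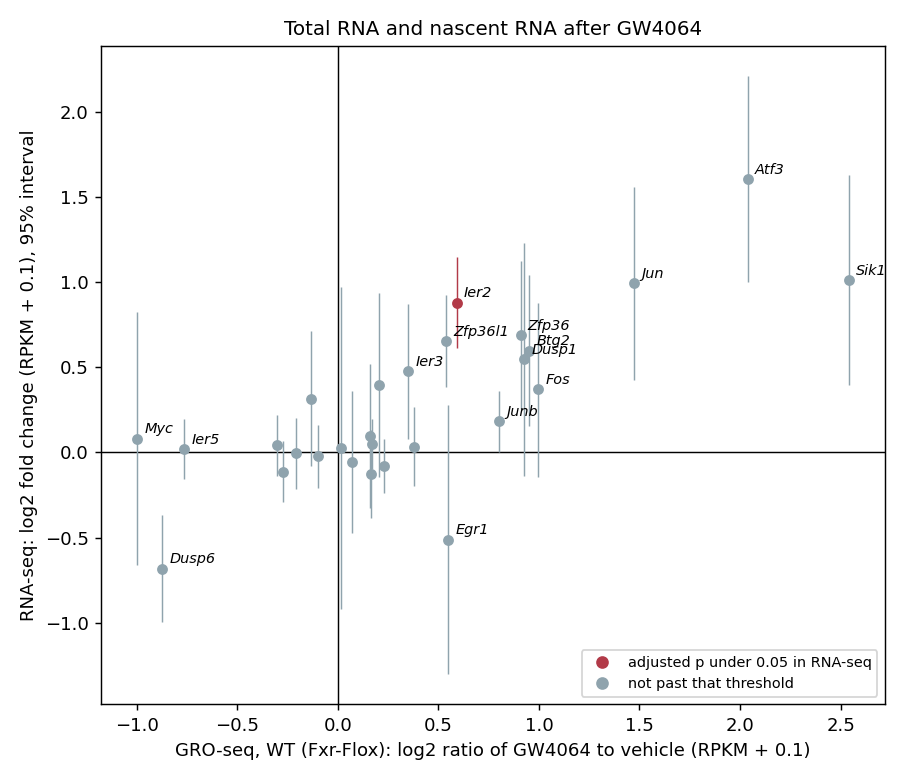
RNA-seq log2 fold change with its 95% limma interval (vertical) against the GRO-seq log2 ratio in WT (Fxr-Flox) livers (horizontal), both after adding 0.1 RPKM, for the 27 genes that passed both filters and for Atf3. The red point is Ier2, the gene past the adjusted threshold. Sik1, Atf3 and Jun lie to the upper right, Dusp6 to the lower left, and Egr1 and Myc have opposite signs in the 2 assays.

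RNA-seq and GRO-seq came from different mice, so a difference in size between the assays was not tested. Of the 27 genes that passed both filters, 15 were higher with GW4064 in RNA-seq and in WT GRO-seq, 4 were lower in both and 8 had opposite signs. The same was not counted over all genes, so these counts have no background. Among the genes with the largest RNA-seq changes, Sik1 had a log2 difference of 1.01 in total RNA and 2.54 in nascent RNA, Jun 0.99 and 1.47, and Ier2 0.88 and 0.59, all after adding 0.1 RPKM.

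Related gene lists, also chosen with earlier results of these data known, were counted in the same fit. There 2.13% of all genes tested were called higher and 1.15% lower. Of 48 other primary response genes tested, 8 rose and 1 fell in RNA-seq, led by Gadd45b, a stress and growth arrest gene (4.35 and 4.21 RPKM with vehicle, 19.4 and 20.3 RPKM with GW4064, limma adjusted p = 0.01), and Hes1, a repressor (2.97 and 2.63 against 13.4 and 12.8 RPKM, limma adjusted p = 0.0108). In GRO-seq, 9 of 46 such genes were 2-fold higher (background 2.56%) and 2 lower (background 1.61%) in WT livers. In the KO libraries 1 was higher (background 0.688%) and 1 lower (background 0.482%). Gadd45b had a log2 ratio of 3.32 in WT and 1.29 in KO, and Hes1 one of 1.33 in WT and -0.43 in KO. Of 8 cytoskeletal targets of serum response factor, 2 rose, Actg1 (log2 change 1.82, limma adjusted p = 0.0149) and Zyx (0.88, limma adjusted p = 0.0398). Of 8 AP-1 partner genes, Mafg rose (0.77, limma adjusted p = 0.0305).

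No gene passed the test in 4 lists. These were 32 upstream kinases and factors (smallest p for Mapk14, log2 change -0.33, and Nelfa, -0.22), 10 feedback phosphatases and kinase inhibitors (Sik2, -0.30, and Dusp3, 0.23), 13 glucocorticoid response genes (Zbtb16, -0.58, and Fkbp5, -0.60) and 10 heat shock genes (Hspe1, 0.38, and Hsp90aa1, 0.21). The median log2 change of the glucocorticoid response genes in RNA-seq was -0.064. In GRO-seq, with 1 library per group, 6 of 13 were 2-fold higher in WT livers after GW4064 (Mt1, Mt2, Cdkn1a, Pdk4, Sds, Igfbp1, background 2.56%). In the KO libraries 0 were 2-fold higher (background 0.688%) and 1 lower (background 0.482%). Fkbp5 (12.0 to 6.08 RPKM), Tsc22d3 (20.1 to 11.6 RPKM) and Zbtb16 (13.8 to 9.67 RPKM), of the same list, were lower with GW4064 in WT. The median GRO-seq log2 ratio of the list was 0.93 in WT and 0.10 in KO. Its summed level was 303 and 510 RPKM in the WT libraries and 466 and 435 RPKM in the KO libraries. Heat shock genes had a median log2 ratio of 0.497 in WT and -0.058 in KO, with 0 of the 9 that passed the filter past 2-fold in either. The part of either list in the differences of Jun, Sik1 and Atf3 was not tested.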

How the data were processed

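RNA-seq and GRO-seq reads of mouse liver were mapped by the authors to mm10 with STAR 2.7.3a and quantified with HOMER, and the submitters' processing notes also name bcl2fastq and FastQC. The deposited table holds RPKM per gene, over the whole gene span, in 8 libraries, with 0 further columns of per-sample values. Library totals and reads were rebuilt from RPKM, row length and the smallest steps, and 100% of testable values were whole within 0.15. Listed rows held 89.2% to 92.4% of the reads. Rows of Fosl1 (33.7% shared with Ccdc85b on the opposite strand), Klf9 and Srf overlap another row.

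The 34 genes and the gene lists were chosen with earlier results of these data known. RNA-seq log2(RPKM + 0.1) was fitted with limma 3.58.1 in R 4.3.3 (treatment only, eBayes with trend) for rows with a mean of at least 0.5 RPKM, with Benjamini-Hochberg adjustment at 0.05, and the fit was tested on simulated data. The 2 libraries of a treatment pool different mice. GRO-seq log2 ratios and exact conditional counting intervals (95%, Clopper-Pearson) used Python 3.11.15, numpy 2.4.6, pandas 2.3.3 and scipy 1.17.1, and figures used matplotlib 3.10.9. Intervals cover counting error only, and are too narrow even for that where reads are PCR copies, which are not independent molecules. Fold changes after adding 0.1 RPKM understate the change of low genes.

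All 34 genes are reported. Those given in every library are genes past the RNA-seq threshold, past 2-fold in a GRO-seq GW4064 ratio, or with the highest RNA-seq level of their role. Others, such as Atf3, Dusp6, Zfp36l1 and Btg2, were added after their values were seen. For Srf, Klf9, Mcl1 and Ier5 the RNA-seq values are given as a range over the libraries. Of each other list, the 2 genes with the smallest p are named, except where an item is not reported here. Alternatives were other added values (0.01 and 1 RPKM), filters (0.1 and 1 RPKM, none), quantile normalization, median centring, eBayes without trend or robust, the replicate number as a block, limma-voom on rebuilt reads and each library left out. Limma-voom without a filter was chosen after seeing the data.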

Additional observations from a re-analysis of the deposited data

Results flagged for a closer look

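The GRO-seq log2 ratio of GW4064 to vehicle had opposite signs in the WT and FXR KO library pairs in 10 of the 27 genes that passed the filter, and in 7 of these the 95% counting interval of the difference also left out 0. The others were Klf4, Ier3 and Rhob. The share of all rows with opposite signs was not counted, so these counts have no background. Over all rows, whatever the signs, that interval lay above 0 in 15.2% and below 0 in 19.9%. The difference between genotypes was not tested, since each group has 1 library. The WT minus KO difference, after adding 0.1 RPKM, was 1.336 for Egr1, 1.197 for Junb, 1.073 for Btg2, 1.04 for Zfp36 and 0.703 for Zfp36l1, where the WT ratio was above 0 and the KO ratio below. It was -1.401 for Myc and -1.178 for Dusp6, where the signs were the other way round.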

How the results depend on the processing

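With RNA-seq limma, the count of immediate early genes called higher, 1 as reported, was 2 with 1 RPKM added, 3 with robust eBayes, 6 with limma-voom, and 0 without a filter, with limma-voom without a filter or with any 1 library left out. The count called lower, 0 as reported (1 at an unadjusted p under 0.05), was 1 with limma-voom. Over all genes limma-voom called 522 higher and 481 lower. Leaving out 1 library gave 0 to 32 higher and 0 to 11 lower, all of them without vehicle replicate 1. The replicate number did not pair the libraries (correlation of the gaps -0.022 over 11408 genes), and the replicate block gave 0 higher and 0 lower over all genes and 0 for the immediate early genes, with 2327 genes at an unadjusted p under 0.05 by limma. The median log2 change ranged from 0.056 to 0.308 with 1 library left out. Under quantile normalization the log2 change was -0.102 for Jund, -0.039 for Klf9 and -0.085 for Mcl1. With 1 library left out it spanned 0 for Jund (-0.052 to 0.117), Klf2 (-0.102 to 0.293), Klf6 (-0.081 to 0.072), Klf9 (-0.007 to 0.088), Nr4a1 (-0.31 to 0.361), Myc (-0.179 to 0.341), Srf (-0.081 to 0.034), Ier5 (-0.027 to 0.065) and Rhob (-0.222 to 0.111).

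For GRO-seq, the count at 2-fold higher in WT was 6 after median centring, and that at 2-fold lower was 1 (Myc) with 0.01 RPKM added. In KO, 1 RPKM added gave 0 higher and 0 lower, and a filter at 1 RPKM gave 0 lower. For KO against WT, 1 RPKM added gave 0 lower with vehicle and 3 lower with GW4064 (Zfp36, Dusp1, Sik1), and filters at 0.1 RPKM or none gave 2 higher with GW4064 (Fosb, Myc). The cause was not tested. Groups of 2 libraries, pooled mice and unreplicated GRO-seq limit these values, and the KO libraries with 5069394 to 5141667 reads limit genes such as Fos and Nr4a1.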
